A study of Mus musculus with 14 samples.

Results

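Tissue macrophages are resident phagocytes that clear dead cells and debris, present antigen and secrete factors that act on the cells around them. In skeletal muscle they lie mainly in the connective tissue around fibres and vessels, and they depend on signalling through the CSF1 receptor. The 10 genes described here are widely used as macrophage genes: Adgre1 (F4/80), Cd68 and Csf1r mark identity and growth, Cd163 and Mrc1 are scavenger receptors, C1qa, C1qb and C1qc encode the chains of complement C1q, and Lyz2 and Ctss encode the lysosomal enzymes lysozyme and cathepsin S. They were taken by gene symbol, and each symbol matched 1 row among the 54532 genes of the count and FPKM tables.

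The study compared skeletal muscle of male FVB/N mice that overexpress c-Myc in endothelial cells with that of littermate controls, on a control or a western diet. EC-Myc OE mice carried a human c-Myc transgene under a tetracycline-responsive promoter (Tet-O-Myc) together with a tTA transactivator driven by the endothelial Cdh5 promoter, while CT littermates carried Tet-O-Myc without tTA. The transgene was induced by taking the mice off doxycycline at 4 to 6 weeks of age, and the diets were given for 20 weeks by the labels, although the study's results section gives another duration for the transcriptome. Polyadenylated RNA of whole muscle was sequenced, from soleus and gastrocnemius by the methods, and the labels do not say which muscle a library came from. By the labels there were 3 CT libraries from the control diet (CT-CTD) and 3 from the western diet (CT-WD), and 4 EC-Myc OE libraries from each diet (OE-CTD and OE-WD). The legend of the study's transcriptome figure gives group sizes by diet that do not match these labels, and the labels were kept. Nothing states that replicates came from separate animals, so p-values measure the spread between these libraries, which may be technical.

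Summed counts per library ran from 21833839 to 28519159, and the 10 genes together took between 1217 and 4067 of them, or 0.00486% to 0.0156%. Levels of single genes are given as CPM, the count divided by the TMM-scaled library total and put on the usual CPM scale. A single gene had between 9 counts and 1224 counts in a library. All 10 genes were among the 15458 that passed the filter on low counts. The sample names of CT-CTD 1 and CT-WD 1 come from a separate, lower number series than those of the other CT libraries, and the labels do not say what the numbers mean. The names of OE-CTD 1 to 3 share a number, as do those of the 4 OE-WD libraries, with other letters before it. Whether libraries that share a number come from the same animal, litter or cage is not given, and the p-values treat all libraries as independent. By chi-square per degree of freedom of their counts, OE-CTD 1 to 3 differed from each other by 7.502 to 10.16 and from OE-CTD 4 by 35.61 to 41.24, and OE-WD 1 to 3 from each other by 8.166 to 14.49 and from OE-WD 4 by 37.17 to 40.38. In the CT groups the libraries differed by 16.15 to 48.13. OE-CTD 4 and OE-WD 4 stood apart in composition: mitochondrial transcripts took 14.9% and 14.5% of their counts, and the factors by which TMM, a correction for differences in RNA composition, scales their totals were 0.888 and 0.899, the lowest of the 14 libraries. Mouse Myc, which is not the human transgene, does not check the genotype labels, and its log2 fold change was 0.16 (SE 0.315, edgeR adjusted p = 0.863) for OE-CTD against CT-CTD and -0.49 (SE 0.304, edgeR adjusted p = 0.442) for OE-WD against CT-WD.

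The libraries were muscle by their markers, with Acta1, the skeletal actin, at a mean of 30600 FPKM. FPKM, counts per length and library total, allows levels of different genes to be set side by side. Lyz2 had the highest mean level of the 10 genes, at 23.3 ± 8.89 FPKM (SD, n = 14), and was above C1qa in 14 of 14 libraries. C1qa followed at 13.3 ± 3.97 FPKM, C1qb at 8.32 ± 2.61 FPKM and C1qc at 4.75 ± 1.45 FPKM, and that order held in 14 of 14 libraries. The next 3 genes could not be ordered beyond their spread: Cd68 had a mean of 3.3 FPKM, Ctss of 3.25 FPKM and Csf1r of 3.01 FPKM, and Cd68 exceeded Ctss in 7 of 14 libraries. Mrc1 and Cd163 could not be ordered either, with means of 1.39 FPKM and 1.29 FPKM and Mrc1 higher in 8 of 14 libraries. Adgre1, which encodes the adhesion receptor F4/80, was the lowest at 0.511 ± 0.306 FPKM, below Cd163 in 14 of 14 libraries.

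Several member counts carry limits of the annotation. Csf1r (chromosome 18, 61105572 to 61132149 in the count table, plus strand) is the gene of the 10 whose coordinates differ from those in GENCODE. By the table it overlaps Hmgxb3 on the minus strand, which had a mean of 20.5 CPM, and the strand setting of the counting is not given in the sources used here, so reads in the shared bases cannot be told apart. Lyz2 lies beside its close copy Lyz1 on chromosome 10, and Lyz1 had 9 to 35 counts against 356 to 1224 for Lyz2. How reads that match both were assigned is not given either. Adgre1 had the fewest counts of the 10 genes, and its differences have the widest errors.

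**Figure D1:**
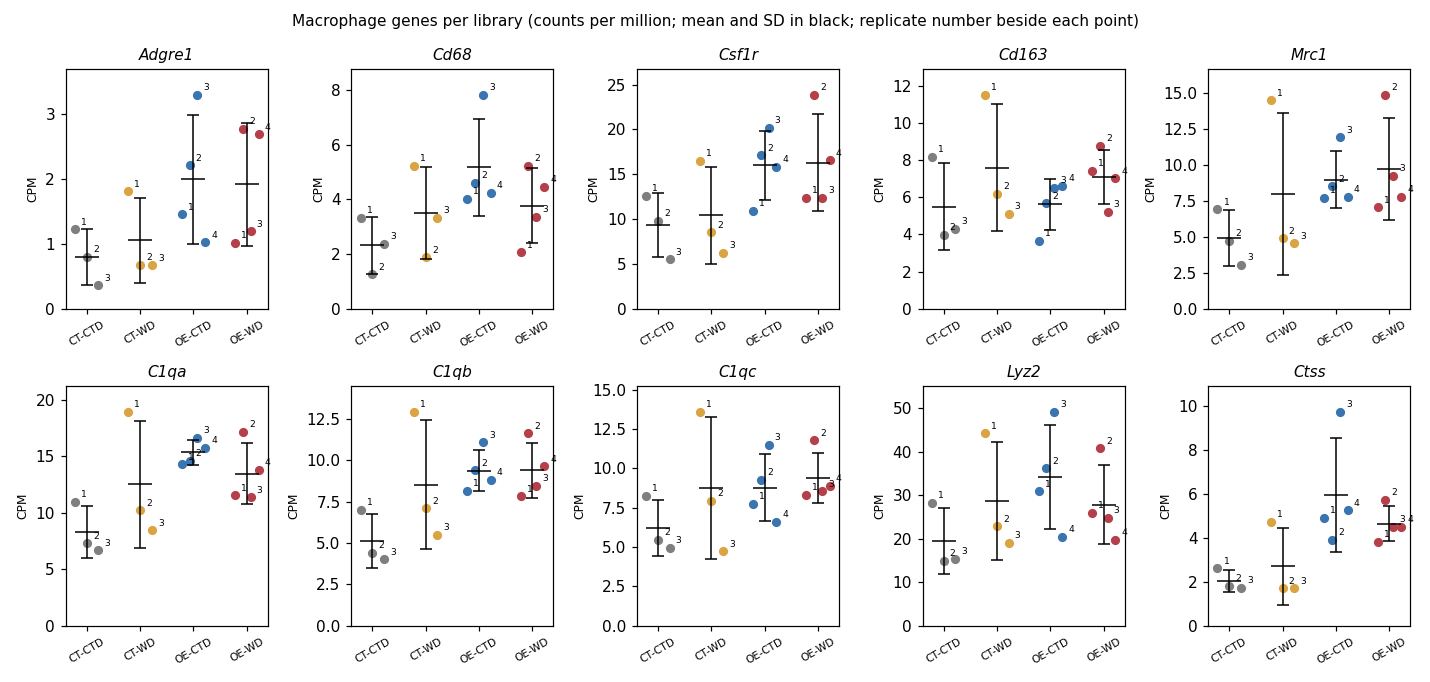
CPM after TMM scaling (vertical axes, from 0) of the 10 macrophage genes in each of the 14 libraries, by group, with the replicate number beside each point and the group mean and SD in black. For Ctss, the 4 OE-CTD libraries lie between 3.89 and 9.73 CPM, above the 3 CT-CTD libraries at 1.71 to 2.61 CPM, while for Cd163 the groups overlap.

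With all 14 libraries, the largest median difference lay between genotypes on control diet. Between OE-CTD and CT-CTD, 1 of the 10 genes, Ctss, was higher at a fold over 1.5 with an edgeR adjusted p-value under 0.05. In either direction 1.91% of all tested genes passed this rule, 183 higher and 112 lower. At an unadjusted p-value under 0.05 with the same fold, 8 of 10 genes passed and all were higher in OE-CTD, against 7.12% of all genes in either direction and 4.94% higher. That count depended on single libraries: it was 3 without CT-CTD 2, 4 without CT-CTD 3, 4 without OE-CTD 3 and 5 without OE-CTD 2, and 7 to 9 without any other library. The log2 fold changes of the 10 genes were all above 0, with a median of 0.87 against -0.001 over all genes tested. In bulk muscle, more macrophages, more RNA of these genes per macrophage and RNA of these genes from other cells cannot be told apart. In 5 of 10 genes (Cd68, Mrc1, C1qa, C1qb and Ctss) every OE-CTD library was above every CT-CTD library, as in 8.73% of all genes tested.

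Ctss (ENSMUSG00000038642, a protein-coding gene on the plus strand of chromosome 3, 95526786 to 95556403 on GRCm38) encodes cathepsin S, the protease that trims the invariant chain before class II antigen presentation. The level of Ctss was 2.61, 1.8 and 1.71 CPM (CT-CTD 1 to 3) against 4.91, 3.89, 9.73 and 5.26 CPM (OE-CTD 1 to 4). OE-CTD 3 was the highest, and the lowest OE-CTD library was still above the highest CT-CTD library. The log2 fold change was 1.54 (SE 0.375, edgeR adjusted p = 0.0411), higher in 4 of 4 OE-CTD libraries. The call was close to the threshold and was lost in 9 of the 14 fits that left out 1 library. The edgeR adjusted p was 0.0526 without CT-CTD 1, 0.165 without CT-CTD 2 and 0.181 without CT-CTD 3. It was 0.0656 without OE-CTD 1, 0.0559 without OE-CTD 2 and 0.127 without OE-CTD 3. It was 0.0521 without OE-WD 1, 0.0598 without OE-WD 3 and 0.0517 without OE-WD 4, libraries outside this comparison that share its model, filter and adjustment. Without OE-CTD 4 and OE-WD 4 together, a setting chosen after seeing the data, it was 0.0562. Over all alternatives the log2 fold change of Ctss stayed between 1.08 and 1.95 and its adjusted p between 0.000721 and 0.181. Lyz2, the other lysosomal enzyme, degrades bacterial cell walls and was 28.3, 14.9 and 15.4 CPM (CT-CTD 1 to 3) against 30.9, 36.3, 49.2 and 20.4 CPM (OE-CTD 1 to 4). OE-CTD 4 lay among the CT-CTD libraries, and the log2 fold change of 0.81 (SE 0.341) had an edgeR adjusted p of 0.252.

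C1q is the recognition molecule of the classical complement pathway, and in tissues macrophages are a main source of it. C1qa was 11, 7.28 and 6.67 CPM (CT-CTD 1 to 3) against 14.3, 14.6, 16.7 and 15.8 CPM (OE-CTD 1 to 4). C1qb was 7, 4.39 and 4.01 CPM (CT-CTD 1 to 3) against 8.17, 9.4, 11.1 and 8.83 CPM (OE-CTD 1 to 4). The groups did not overlap for either gene, and CT-CTD 1 was the CT library nearest to OE-CTD. The log2 fold change was 0.88 (SE 0.245, edgeR adjusted p = 0.0724) for C1qa and 0.87 (SE 0.263, edgeR adjusted p = 0.101) for C1qb, so neither passed. C1qa passed without CT-CTD 1 (edgeR adjusted p = 0.0423), without CT-WD 1 (0.0129) and without CT-WD 3 (0.039). C1qb passed without CT-CTD 1 (edgeR adjusted p = 0.0495) and without CT-WD 1 (0.0253). Both also passed with DESeq2 (adjusted p = 0.0104 for C1qa and 0.0255 for C1qb), with these groups alone (edgeR adjusted p = 0.0147 and 0.0357), with no filter on low counts (0.0031 and 0.0111) and without both CT libraries numbered 1 (0.00261 and 0.00473). Over all alternatives their adjusted p reached 0.293 and 0.36. C1qc was 8.27, 5.44 and 4.96 CPM (CT-CTD 1 to 3) against 7.74, 9.27, 11.5 and 6.58 CPM (OE-CTD 1 to 4), with overlap. Its log2 fold change was 0.5 (SE 0.293, edgeR adjusted p = 0.448).

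Of the identity and growth genes, Cd68 encodes a glycoprotein of late endosomes and lysosomes. It was 3.32, 1.26 and 2.38 CPM (CT-CTD 1 to 3) against 4.03, 4.62, 7.83 and 4.24 CPM (OE-CTD 1 to 4). The groups did not overlap, and the log2 fold change was 1.15 (SE 0.396, edgeR adjusted p = 0.149). Adgre1 was 1.23, 0.795 and 0.357 CPM (CT-CTD 1 to 3) against 1.46, 2.21, 3.3 and 1.02 CPM (OE-CTD 1 to 4). Its log2 fold change was 1.33 with the widest error of the 10 genes (SE 0.534, edgeR adjusted p = 0.228), and OE-CTD 4 lay within the CT-CTD range. Csf1r, the receptor for the growth factor CSF1, was between 5.48 and 12.6 CPM in CT-CTD and between 10.9 and 20.2 CPM in OE-CTD, with a log2 fold change of 0.78 (SE 0.34, edgeR adjusted p = 0.266).

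The scavenger receptors take up ligands from the surroundings of the cell. Mrc1 encodes the mannose receptor CD206, and was 6.92, 4.73 and 3.06 CPM (CT-CTD 1 to 3) against 7.71, 8.51, 11.9 and 7.76 CPM (OE-CTD 1 to 4). The groups did not overlap, with a log2 fold change of 0.87 (SE 0.391, edgeR adjusted p = 0.285). Cd163 encodes the receptor for haemoglobin bound to haptoglobin, and was 8.19, 3.97 and 4.29 CPM (CT-CTD 1 to 3) against 3.64, 5.67, 6.51 and 6.63 CPM (OE-CTD 1 to 4). The highest and the lowest of these values were a CT-CTD and an OE-CTD library, and the log2 fold change was 0.03 (SE 0.31, edgeR adjusted p = 0.979). The difference between the fold changes of Mrc1 and Cd163 was not tested.

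**Figure D2:**
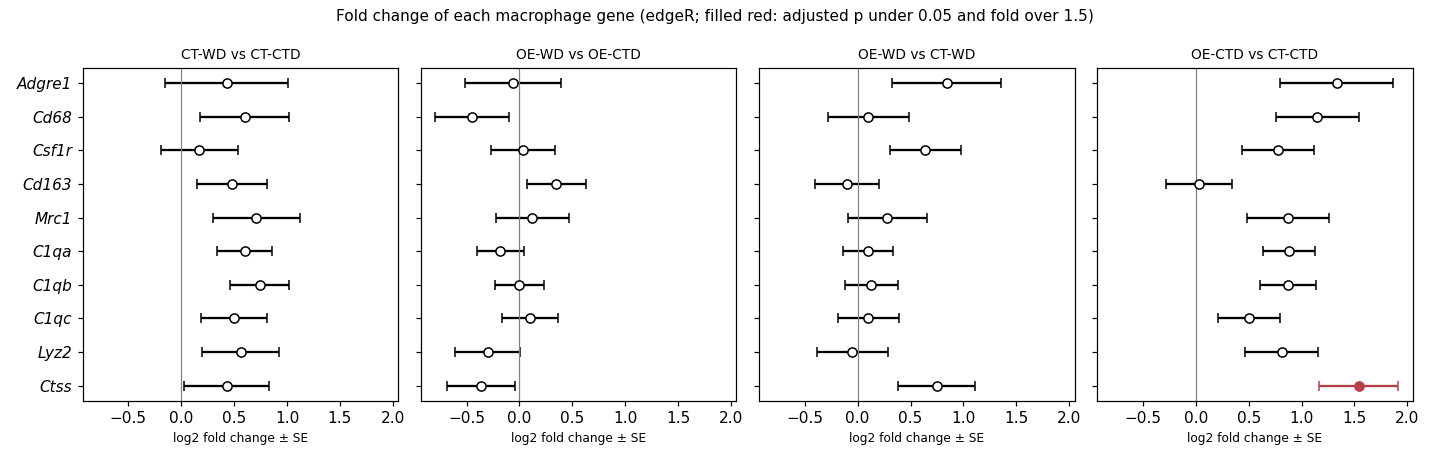
Log2 fold change (horizontal axis, points with bars of 1 SE, edgeR) of each of the 10 macrophage genes in 4 comparisons, with 0 as a grey line and a filled red point for a gene past the threshold. Only Ctss in OE-CTD against CT-CTD is filled, at 1.54, and in the same panel Cd163 is at 0.03.

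On western diet the same genotypes were compared. Between OE-WD and CT-WD, 0 of 10 genes passed at an edgeR adjusted p-value under 0.05, against 0.563% of all genes, and 0 of 10 at an unadjusted p-value under 0.05 (1 of 10 with the replicate block), against 5.74%. With an adjusted p, DESeq2 and limma also called 0 of the 10 genes. At an unadjusted p-value, DESeq2 and each limma setting gave 1 of 10. No filter on low counts and the slow fibre covariate each gave 3 of 10. The median log2 fold change was 0.12, against 0.006 over all genes, and it was 0.58 without CT-WD 1. Ctss was 4.74, 1.69 and 1.69 CPM (CT-WD 1 to 3) against 3.81, 5.72, 4.51 and 4.5 CPM (OE-WD 1 to 4). CT-WD 1 lay among the OE-WD libraries, above both other CT-WD libraries, and the log2 fold change was 0.75 (SE 0.364, edgeR adjusted p = 0.308). Without CT-WD 1, 2 of 10 genes passed, Csf1r with an edgeR adjusted p of 0.0469 and Ctss with 0.0196, while the calls over all genes numbered 905, against 87 with all libraries. Without CT-CTD 1 and CT-WD 1 together, 3 of 10 genes passed in this comparison (Csf1r, Mrc1 and Ctss), and 5 of 10 between OE-CTD and CT-CTD (Mrc1, C1qa, C1qb, Lyz2 and Ctss). Over all genes the calls then numbered 997 in this comparison and 550 between OE-CTD and CT-CTD, where there were 295 with all libraries.

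The diet comparison within CT asks how these genes differed after western diet without the transactivator. Between CT-WD and CT-CTD, 0 of 10 genes passed at an edgeR adjusted p-value under 0.05, as did 0% of all genes, and DESeq2 and limma called 0 of the 10. At an unadjusted p-value under 0.05, 2 of 10 passed, against 3.05% of all genes. These were C1qa, with a log2 fold change of 0.6 (SE 0.259, edgeR adjusted p = 0.646), and C1qb, with 0.74 (SE 0.279, edgeR adjusted p = 0.595). The replicate block gave 1 of 10 at an unadjusted p-value, and leaving out 1 library gave 0 to 6. All 10 log2 fold changes were above 0, with a median of 0.53 against 0.007 over all genes. C1qb stood at 12.9, 7.1 and 5.51 CPM in the CT-WD libraries 1 to 3, against 7, 4.39 and 4.01 CPM in CT-CTD 1 to 3. In the 3 pairs of CT libraries of like number, the western diet library was the higher in every pair for 6 of 10 genes (Cd68, Cd163, Mrc1, C1qa, C1qb and Lyz2), against 14.3% of all genes, and the lower in every pair for 0 of 10. The labels do not state these pairs, which were taken from a correlation in these same data. No conclusion on diet is therefore drawn from the pairs. The median was 0.03 without CT-WD 1 and 0.88 without CT-CTD 1, fits that each break a pair. It was 0.35 without both libraries of that pair and 0.51 with the replicate block. In this comparison 7 of 7 fibroblast genes (median log2 fold change 0.5) and 7 of 7 epidermal genes (median 0.59) were also above 0. Of the adipocyte genes 0 of 7 were above 0 (median -0.87).

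The diets were also compared within EC-Myc OE. Between OE-WD and OE-CTD, 0 of 10 genes passed at an edgeR adjusted p-value under 0.05, against 0.00647% of all genes, and 0 of 10 at an unadjusted p-value under 0.05, against 1.37%. DESeq2 and limma also called 0 of the 10. The log2 fold changes ran from -0.45 for Cd68 (SE 0.348) to 0.35 for Cd163 (SE 0.283), 5 above 0 and 5 below, with a median of -0.03 that was -0.26 without OE-WD 2 and 0.13 without OE-CTD 3. Lyz2 was 26, 40.9, 24.8 and 19.8 CPM in replicates 1 to 4 of OE-WD, which overlapped OE-CTD.

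The diet by genotype interaction is the diet difference in EC-Myc OE minus that in CT. For 0 of 10 genes did it pass at an edgeR adjusted p-value under 0.05, as for 0% of all genes, and DESeq2 and limma also called 0 of the 10. At an unadjusted p-value under 0.05, 1 of 10 passed, against 2.7% of all genes: C1qa, with -0.78 on the log2 scale (SE 0.339, edgeR adjusted p = 0.834). All 10 values were below 0, with a median of -0.66, and the median was 0 without CT-WD 1 and -0.98 without CT-CTD 1. The comparisons share groups, so their signs are not independent.

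Across libraries the 10 genes varied together. The macrophage level, the mean over the 10 genes of log2 CPM relative to each gene's own mean, was -0.04, -0.75 and -0.94 in CT-CTD 1 to 3 and 0.66, -0.45 and -0.61 in CT-WD 1 to 3. It was 0.04, 0.3, 0.77 and 0.1 in OE-CTD 1 to 4 and -0.08, 0.7, 0.03 and 0.26 in OE-WD 1 to 4. In both CT groups the library numbered 1 was the highest, and CT-WD 1 lay above 6 of the 8 EC-Myc OE libraries. Over the 45 pairs of genes, Pearson's r of log2 CPM across the 14 libraries ran from 0.382 to 0.973 with a median of 0.822, and for deviations from group means from 0.558 to 0.977 with a median of 0.802. These libraries may differ in tissue composition, which was not measured apart from expression. All genes of a library share a scaling factor, so r describes the libraries and has no test. C1qb followed the other 9 genes most closely (r = 0.961, n = 14) and Cd163 least (r = 0.598, n = 14). Within groups C1qb was again the closest (r = 0.973), but Cd68 was the least close (r = 0.714), and the r of Cd163 was 0.801.

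The 3 C1q genes lie side by side on chromosome 4 of GRCm38, all on the minus strand, in the order C1qb (136880129 to 136886187), C1qc (136889804 to 136893065) and C1qa (136895917 to 136898803). The gaps between them are 3616 and 2851 bases. Over the 14 libraries C1qa was at 1.4 to 1.87 times the FPKM of C1qb (median 1.59) and at 2.39 to 4.45 times that of C1qc (median 2.64), and C1qb was at 1.43 to 2.38 times that of C1qc (median 1.73). The ratio of Mrc1 to Cd163, genes on different chromosomes, ran from 0.611 to 1.81 (median 1.01). Across the 14 libraries, r of log2 CPM was 0.973 for C1qa with C1qb, 0.915 for C1qb with C1qc and 0.854 for C1qa with C1qc. For Mrc1, on another chromosome, it was 0.919 with C1qa, 0.943 with C1qb and 0.909 with C1qc.

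Most similar to the macrophage level across the 14 libraries, among 12736 other genes with a mean of at least 1 CPM, was C3, the central complement component (r = 0.968, n = 14). Igfbp4, which binds insulin-like growth factors (r = 0.964), Efhd1 (r = 0.962), Cadm3 (r = 0.958) and Laptm5, a lysosomal protein of blood cells (r = 0.955), followed. Serping1, the C1 inhibitor (r = 0.952), the elongation factor Eef1a1 (r = 0.951), the progranulin gene Grn (r = 0.937), Il13ra1 (r = 0.936) and Gas7 (r = 0.935) completed the 10 nearest. The median r over all these genes was -0.018 and the 99th percentile was 0.854. Of the 10, Gas7 was altered between OE-CTD and CT-CTD, with a log2 fold change of 1.14 (edgeR adjusted p = 0.0361).

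Other macrophage genes were mostly above 0 in the same comparison. In these lists, as for the 10 genes, a gene that passed at either p-value also had a fold over 1.5. Over all genes tested, 1.91% passed with edgeR's adjusted p and 7.12% at an unadjusted p-value, with 4.94% past it and higher in OE-CTD. Of 24 listed, 22 were tested between OE-CTD and CT-CTD, 20 had log2 fold changes above 0 with a median of 0.57, 0 passed with edgeR's adjusted p and 5 at an unadjusted p-value. Mpeg1, the pore-forming perforin-2, had the smallest p, at 1.73 (SE 0.554, edgeR adjusted p = 0.121), while Maf, a transcription factor also expressed outside macrophages and the most abundant per length at 28 FPKM, was at 0.11. Among 11 genes of tissue-resident macrophages 2 passed at an unadjusted p-value, with a median of 0.43, and the chemokine Ccl24 had the smallest p, at 1.48 (SE 0.451, edgeR adjusted p = 0.101). Among 10 genes of monocytes and recruited macrophages only 5 were tested, and Fn1 passed at 1.08 (SE 0.264, edgeR adjusted p = 0.0408). Fn1 encodes fibronectin, which fibroblasts also make. Most abundant per length were Gas6 in the tissue-resident list, at 42.7 FPKM, and Ly6c1 in the monocyte list, at 45.7 FPKM. Lipid-associated macrophage genes had a median of 0.28, with 3 of 10 past the unadjusted p-value and Gpnmb with the smallest p, at 1.56 (SE 0.448, edgeR adjusted p = 0.082). In that list Trem2 had 14, 5 and 10 counts in CT-CTD 1 to 3 against 40, 27, 54 and 11 in OE-CTD 1 to 4. It passed the filter on low counts only through groups other than CT-CTD, so no conclusion is drawn from this share or median. Cd36 was the most abundant of that list per length, at 118 FPKM. Which cells expressed the genes of these lists in whole muscle was not measured.

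The partners of C1q and the ligands of Csf1r were measured as well. Of 10 classical complement partners, 6 passed at an unadjusted p-value between OE-CTD and CT-CTD, all higher in OE-CTD, and 0 with edgeR's adjusted p, with a median log2 fold change of 0.73, where 7.12% of all genes passed at an unadjusted p-value. The protease gene C1s1 had the smallest p, at 0.6 (SE 0.2, edgeR adjusted p = 0.137), and Serping1 was the most abundant at 31.8 FPKM. The ligand Csf1 was at 0.82 (SE 0.271, edgeR adjusted p = 0.13) and Il34 at -0.18 (SE 0.183, edgeR adjusted p = 0.697). Among other lysozyme, cathepsin and lysosomal genes 0 of 11 passed at either p-value with a fold over 1.5, and the median was 0.04. Of those, Ctsl had a log2 fold change of 0.41 (SE 0.097, edgeR adjusted p = 0.0386), under the fold limit. Of 20 cytokine and chemokine genes 8 were tested. At an unadjusted p-value 6 of the 8 passed, with a median of 0.87, and 0 passed with edgeR's adjusted p. Among the 8, Ccl8 had 3, 4 and 0 counts in CT-CTD 1 to 3 against 16, 4, 18 and 7 in OE-CTD 1 to 4. Such a gene passed the filter on low counts only through groups other than CT-CTD, so no conclusion is drawn from this share or median.

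Markers of other cells were listed as well. Of 10 pan-leukocyte genes 8 were tested, all above 0 between OE-CTD and CT-CTD, and Lcp1, an actin-bundling protein of blood cells, passed at 1.54 (SE 0.369, edgeR adjusted p = 0.0386). Leaving out 1 library lost the call of Lcp1 in 7 of 14 fits, of Fn1 in 7 and of Myod1, below, in 6, and of the 12 other alternatives 8 kept the call of Lcp1, 8 that of Fn1 and 6 that of Myod1. Over all alternatives the log2 fold change of Lcp1 ran from 0.48 to 2.08 (edgeR, DESeq2 or limma adjusted p up to 0.179), that of Fn1 from 0.91 to 1.4 (up to 0.173) and that of Myod1 from -0.88 to -0.49 (up to 0.19). Most genes of lymphocytes and neutrophils were below the filter, which 0 of 11 T and NK cell genes, 1 of 7 B cell genes and 1 of 9 neutrophil genes passed. Ly6g had 0 counts in every library, and Ms4a1 had at most 1 count. The B cell gene that was tested, Ighm, was at 262 FPKM, with a log2 fold change of -0.36 (SE 0.19, edgeR adjusted p = 0.383). Class II genes had a median of 0.61, with 1 of 6 tested past an unadjusted p-value (H2-Eb1). Dendritic cell and mast cell genes each had 1 such gene, of 5 tested in each list, and blood genes 0 of 4. H2-Eb1 had 1, 4 and 3 counts in CT-CTD 1 to 3 and 12, 10, 7 and 9 in OE-CTD 1 to 4. It passed the filter on low counts only through groups other than CT-CTD, so no conclusion on class II genes is drawn from it.

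All 7 fibroblast genes were past an unadjusted p-value and higher in OE-CTD than in CT-CTD, as were 4.94% of all genes, with a median of 0.95, and 0 passed with edgeR's adjusted p. Pdgfra was closest, at 0.78 (SE 0.201, edgeR adjusted p = 0.0526). Dcn was the most abundant of them per length, at 49.3 FPKM. The summed level of the 7 genes was 576, 507 and 415 CPM (CT-CTD 1 to 3) against 1250, 1490, 1360 and 837 CPM (OE-CTD 1 to 4). On western diet it was 1380, 430 and 427 CPM (CT-WD 1 to 3) against 950, 2300, 1270 and 999 CPM (OE-WD 1 to 4). CT-WD 1 was the high CT library here too, as for the macrophage genes, and OE-WD 2 was the highest of all. Tendon genes, with 4 of 6 past an unadjusted p-value and a median of 1.41, summed to 235, 101 and 163 CPM (CT-CTD 1 to 3) against 403, 608, 500 and 306 CPM (OE-CTD 1 to 4), and Fmod was the most abundant at 63.5 FPKM. The part of connective tissue content in the macrophage differences was not tested.

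**Figure D3:**
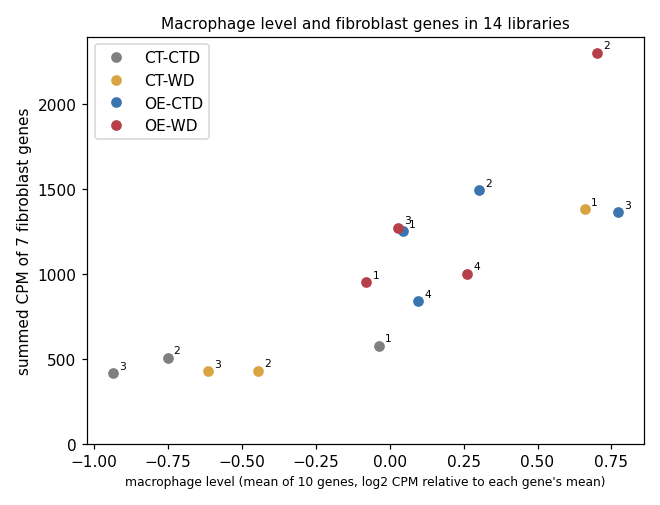
Macrophage level (horizontal axis, mean log2 CPM of 10 genes relative to each gene's mean) against the summed CPM of 7 fibroblast genes (vertical axis from 0) in the 14 libraries, coloured by group and numbered by replicate. CT-WD 1, at 0.66 and 1380 CPM, lies with the EC-Myc OE libraries, and CT-WD 2 and 3, at 430 and 427 CPM, lie with CT-CTD.

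Endothelial genes, which mark the cells that carry the active transgene, were all above 0 between OE-CTD and CT-CTD with a median of 0.31, but 0 of 9 passed at a fold over 1.5. Tek, the angiopoietin receptor, was at 0.52 (SE 0.11, edgeR adjusted p = 0.0232). Muscle fibre lists had medians of 0.07 for skeletal muscle, 0.27 for slow fibre and -0.05 for fast fibre genes and 0 genes past either p-value at a fold over 1.5. Atp2a2 of the slow fibre list, at 0.39 (SE 0.113, edgeR adjusted p = 0.0881), and Mb, myoglobin, at 0.27 (SE 0.111, edgeR adjusted p = 0.247), met the unadjusted p-value but not the fold. Of 5 satellite cell genes 3 were above 0, with a median of 0.07, and Myod1 was lower at -0.69 (SE 0.16, edgeR adjusted p = 0.0346). Adipocyte genes were mixed, with 1 gene higher and 1 lower at an unadjusted p-value and a fold over 1.5 and a median of -0.12. Car3, at 0.38 (SE 0.111, edgeR adjusted p = 0.0854), met the unadjusted p-value but not the fold. Epidermal and Schwann cell genes had 0 past either p-value.

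Promoter sequences were matched by symbol for 7 of the 10 genes in RefSeq's table on GRCm38.p6, which gives 300 bases, from 250 before to 50 after the start. They were searched on both strands for GAGGAA, the core of the site bound by PU.1, a transcription factor of myeloid cells, whose reverse complement is TTCCTC. The motif is in 28.3% of the 32851 promoters of the table and in 5 of the 7 promoters here, namely those of Cd68, Mrc1, C1qb, C1qc and Ctss. It is not in the windows of Cd163 and Lyz2. Such a match describes the letters and shows no binding. Shown are Ctss, the gene past the threshold, C1qb and C1qc, neighbours that varied together, and Cd163, which had the smallest difference between OE-CTD and CT-CTD, with the motif in capitals and each read 5′ to 3′ along its gene. The Ctss window is chr3:95526536-95526835 on the plus strand, with the motif at positions 87 and 251. The C1qb window is chr4:136886151-136886450 and the C1qc window chr4:136892865-136893164, both on the minus strand, with the motif at positions 221 and 58. The Cd163 window is chr6:124304401-124304700 on the plus strand.
Ctss: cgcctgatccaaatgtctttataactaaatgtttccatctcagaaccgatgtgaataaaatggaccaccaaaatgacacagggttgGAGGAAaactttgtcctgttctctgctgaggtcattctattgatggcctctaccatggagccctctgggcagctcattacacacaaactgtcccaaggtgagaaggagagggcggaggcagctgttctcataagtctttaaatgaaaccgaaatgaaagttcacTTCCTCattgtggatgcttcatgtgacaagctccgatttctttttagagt
C1qb: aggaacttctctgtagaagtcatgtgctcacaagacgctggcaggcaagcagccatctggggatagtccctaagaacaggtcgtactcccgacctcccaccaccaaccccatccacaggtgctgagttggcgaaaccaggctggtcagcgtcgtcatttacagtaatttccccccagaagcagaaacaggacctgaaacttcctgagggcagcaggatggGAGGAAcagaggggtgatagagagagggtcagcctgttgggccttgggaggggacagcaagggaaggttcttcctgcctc
C1qc: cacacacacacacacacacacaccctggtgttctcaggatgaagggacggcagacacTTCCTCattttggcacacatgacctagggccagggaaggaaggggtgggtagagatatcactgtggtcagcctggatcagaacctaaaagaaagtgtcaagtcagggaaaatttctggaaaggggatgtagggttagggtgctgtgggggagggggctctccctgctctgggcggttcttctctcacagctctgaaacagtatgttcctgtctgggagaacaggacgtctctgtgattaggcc
Cd163: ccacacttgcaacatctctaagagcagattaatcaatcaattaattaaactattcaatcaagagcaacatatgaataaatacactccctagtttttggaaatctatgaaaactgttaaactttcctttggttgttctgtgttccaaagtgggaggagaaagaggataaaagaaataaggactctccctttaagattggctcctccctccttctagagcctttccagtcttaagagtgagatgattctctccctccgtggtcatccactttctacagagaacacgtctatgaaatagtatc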

How the data were processed

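RNA-seq of skeletal muscle was analysed in 14 libraries, grouped by their labels. The authors deposited raw counts, the reads assigned to each gene without normalization. The authors also deposited FPKM, counts divided by gene length and by a library total that was 79.93% to 97.97% of the summed counts. The submitters' processing notes name HISAT2 2.0.5, featureCounts 1.5.0-p3 and the build mm10; reads were not analysed here.

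Counts were tested in edgeR 4.0.16 (R 4.3.3) with TMM scaling, filterByExpr and its quasi-likelihood test. All 14 libraries entered a single model of 4 group means, from which 5 comparisons were taken. Benjamini-Hochberg adjustment ran over 15458 genes. A gene passed at an adjusted p-value under 0.05 with a fold over 1.5, and a second count used the unadjusted p-value. Log2 CPM used a prior count of 2. The biological coefficient of variation was 17%. Alternatives used DESeq2 1.42.0, limma 3.58.1 on log2(FPKM + 1) and log2(FPKM + 0.1), other scalings and filters, a replicate block, a slow fibre covariate and fits without single libraries.

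The members and lists were chosen with earlier results of these data known. Of 26 other lists, the text names genes that passed and genes with the highest FPKM or smallest p; the 10 genes most similar to the macrophage level are named by r. No 2 libraries of a group were alike within sampling noise (chi-square per degree of freedom 7.502 to 48.13). As a check of pairing, deviations from the group mean were correlated between CT-WD and CT-CTD libraries of like number, giving 0.385, 0.123 and 0.203. Each exceeded 0.1, so the numbers of these CT libraries count as pairs, on this check alone. The block was fitted to all 14 libraries, although in the other comparisons the libraries share only a number.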

Additional observations from a re-analysis of the deposited data

Results flagged for a closer look

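In 22 groups of 4 libraries checked, 11 measures in both EC-Myc OE groups, 2 had a library far from the others. Cd68 in OE-CTD 3 was 7.83 CPM, against 4.03 to 4.62 CPM in the other OE-CTD libraries. C1qc in OE-WD 2 was 11.8 CPM, against 8.33 to 8.88 CPM in the other OE-WD libraries. Chance alone flags about 1 in 20 groups. Groups of 3 libraries were not checked in this way.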

How the results depend on the processing

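Between OE-CTD and CT-CTD, 1 of 10 genes passed. The count was 5 with no filter on low counts (Cd68, C1qa, C1qb, Lyz2 and Ctss), 3 with DESeq2 and 3 with the groups of the comparison alone (each C1qa, C1qb and Ctss), 5 without both CT libraries numbered 1, 0 with library totals only, and 0 with limma on log2(FPKM + 1) with either filter. It was 1 with RLE factors, with limma on log2(FPKM + 0.1), with the slow fibre level as covariate and with the replicate block, in which Ctss had an edgeR adjusted p of 0.0477. It was 8 at an unadjusted p-value, and 0 without OE-CTD 4 and OE-WD 4 together; both were chosen after seeing the data. Leaving out 1 library gave 0 to 3 in this comparison and 0 to 2 between OE-WD and CT-WD, where the count was 3 without both CT libraries numbered 1. Unadjusted p-values gave 2 genes between CT-WD and CT-CTD and 1 for the interaction. Over all alternatives the count at an unadjusted p-value ran from 3 to 9 between OE-CTD and CT-CTD (8 with all libraries), from 0 to 6 between CT-WD and CT-CTD (2), from 0 to 4 between OE-WD and CT-WD (0) and from 0 to 4 for the interaction (1). The replicate block changed no call with an adjusted p of the 10 genes; with unadjusted p-values it gave 1 gene between CT-WD and CT-CTD and 1 between OE-WD and CT-WD. Libraries of like number in OE-WD and OE-CTD had correlations of their deviations of 0.071, 0.138, 0.142 and 0.338, and 7 of 8 libraries correlated best with their own number. Across genotypes these ran from -0.23 to -0.065 on western diet, with 0 of 6 libraries best with their own number, and from -0.122 to 0.046 on control diet, with 1 of 6. The causes were not tested.

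The median log2 fold change without 1 library ran from 0.03 to 0.88 between CT-WD and CT-CTD, from -0.05 to 0.58 between OE-WD and CT-WD, from -0.26 to 0.13 between OE-WD and OE-CTD, from 0.69 to 1.16 between OE-CTD and CT-CTD and from -0.98 to 0 for the interaction. Between OE-WD and CT-WD it was 0.58 without both CT libraries numbered 1. Between OE-CTD and CT-CTD, 183 genes were higher and 112 lower with TMM, and 79 and 78 with library totals only. Between OE-WD and CT-WD these were 39 and 48 with TMM, 2 and 8 with library totals only, and 162 and 128 with DESeq2. Over all alternatives the number of altered genes ran from 44 to 570 in the first of these comparisons (295 with TMM), from 4 to 997 in the second (87), from 0 to 88 between CT-WD and CT-CTD (0), from 0 to 5 between OE-WD and OE-CTD (1) and from 0 to 29 for the interaction (0).

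Some log2 fold changes had another sign under an alternative, none of them past the threshold there. Without both CT libraries numbered 1, Csf1r and Ctss were each -0.05 between CT-WD and CT-CTD, Cd163 was 0.34 and Lyz2 0.42 between OE-WD and CT-WD, and Csf1r was 0.08 for the interaction. Between OE-WD and OE-CTD, C1qb was 0 with limma on log2(FPKM + 0.1), with these groups alone and with the replicate block, and -0.03 without OE-CTD 4 and OE-WD 4; Csf1r was -0.02 with the replicate block. With the slow fibre covariate, Csf1r was -0.16, Mrc1 -0.14, C1qb -0.13 and C1qc -0.08 there. Between OE-WD and CT-WD, Lyz2 was 0.01 with each limma setting, 0.19 with the replicate block, 0.14 with the slow fibre covariate and 0.08 without OE-CTD 4 and OE-WD 4. Cd163 was -0.06 between OE-CTD and CT-CTD without OE-CTD 4 and OE-WD 4.

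Leaving out 1 library gave these ranges where a sign changed. Between CT-WD and CT-CTD they were Adgre1 -0.24 to 0.88, Csf1r -0.34 to 0.45, Mrc1 -0.06 to 1.04 and Ctss -0.27 to 0.68. Between OE-WD and OE-CTD they were Adgre1 -0.3 to 0.28, Csf1r -0.22 to 0.16, Mrc1 -0.16 to 0.29, C1qb -0.12 to 0.1 and C1qc -0.03 to 0.25. Between OE-WD and CT-WD they were Cd68 -0.19 to 0.53, Cd163 -0.32 to 0.34, Mrc1 -0.01 to 1.05, C1qa -0.12 to 0.53, C1qb -0.1 to 0.58, C1qc -0.2 to 0.58 and Lyz2 -0.29 to 0.41. Between OE-CTD and CT-CTD the range was Cd163 -0.15 to 0.43, and for the interaction Adgre1 -0.95 to 0.17, Csf1r -0.43 to 0.36, Cd163 -0.54 to 0.31, Mrc1 -0.93 to 0.18 and C1qc -0.7 to 0.08. With 9 counts to 1224 counts per gene and library, depth limits Adgre1 most.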
